A study of Mus musculus with 2 samples.

Results

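Levels of 9 glutathione transferase genes were followed across the cell classes in mouse arcuate nucleus and median eminence, parts of the hypothalamus beside the third ventricle that sense and answer hormonal and nutrient signals. The members are Gstp1, Gstp2, Gstm1, Gstm5, Gstm7, Gsta4, Gstt1, Mgst1 and Mgst3, which are 9 of the 29809 genes listed in either count table. They were chosen by name, with earlier results of the same data known, so their differences between the libraries are given as descriptions. The method was Drop-seq, in which a cell and a bead with a cell barcode meet in a droplet. Sequencing covers the 3' end of each transcript, and each captured molecule counts once through its unique molecular identifier (UMI). One library (WT) pooled 7 wild type mice and the other (Irx3/5dHet) pooled 5 mice of genotype Irx3/5+/-, heterozygous for the transcription factor genes Irx3 and Irx5. All mice were of the CD-1 strain and 7 to 8 weeks old, the tissue was microdissected, and live cells were sorted. Each genotype is therefore 1 pooled library without a replicate check: intervals in parentheses are 95% intervals that cover counting error only, and no p-value is given.

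Glutathione transferases join the tripeptide glutathione to reactive compounds, such as the aldehydes left by oxidised lipids and many foreign chemicals, which makes them soluble and easier to export. The soluble enzymes form classes named by letters, with Gstp1 and Gstp2 in the pi class, Gstm1, Gstm5 and Gstm7 in the mu class, Gsta4 in the alpha class and Gstt1 in the theta class. Mgst1 and Mgst3 encode unrelated, membrane-bound proteins with transferase and peroxidase activity. In the brain these enzymes are known chiefly from glia and from the cells that line the ventricles, and the pi class enzyme is a long-used marker of oligodendrocytes.

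The WT library held 4255875 UMIs in 2392 used cells (median 1274 per cell), and the Irx3/5dHet library held 2850978 UMIs in 1480 used cells (median 1156.5). The libraries shared 3 cell barcodes, 1 of them among used cells. Irx3 had 30 UMIs in WT and 15 in Irx3/5dHet, and Irx5 had 16 and 6, with folds of 0.746 (0.373 to 1.43) and 0.560 (0.179 to 1.51). Tags outside the deleted parts would come from all alleles, and these counts are no check of the genotype. Cells were clustered without any glutathione transferase gene and named as like a type from marker genes. Of the 15 neuron markers 15 were highest in neuron-like cells, as were 11 of 11 for oligodendrocyte-like, 10 of 11 for tanycyte-like and 8 of 11 for fibroblast-like cells. The same markers named the clusters, so these counts are no separate check of the names. Astrocyte-like cells formed no cluster of their own. Of the 2 tanycyte-like clusters, with 379 and 133 cells, the larger scored as high on astrocyte as on tanycyte markers, and 1 ependymal-like cluster of 180 cells carried 2 ependymal and 2 astrocyte markers among its 10 leading genes. The 7 classes that held 50 or more cells in both libraries are the ones compared. Neuron-like cells carried 45.4% of the UMIs in WT and 67.0% in Irx3/5dHet, and tanycyte-like cells 14.1% and 6.24%, so a value over all cells also holds this change in mix.

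The pi class genes are shown first by sequence, because their near identity bears on every count below. Gstp1 (ENSMUSG00000060803, chromosome 19, minus strand, bases 4035407 to 4037985 of GRCm38, the assembly also called mm10) and Gstp2 (ENSMUSG00000038155, same strand, 4040285 to 4046023) lie 2299 bases apart, each with 7 exons. A processed pseudogene, Gstp-ps (ENSMUSG00000103653, minus strand of chromosome 1 from 192073820 to 192074450), is a single exon of 631 bases. In the GENCODE vM21 transcripts, Gstp1 and Gstp2 were identical at 95.7% of 786 aligned bases, Gstp1 and Gstp-ps at 97.6% of 631, and Gstp2 and Gstp-ps at 99.2% of 631. The stretch below holds the last bases at which the transcripts differ. It spans bases 411 to 470 of the 821-base Gstp1 transcript, counted from its 5' end, and lies in the coding sequence. Capitals mark the bases that differ from Gstp1, 5 in Gstp2 and 6 in Gstp-ps.
Gstp1: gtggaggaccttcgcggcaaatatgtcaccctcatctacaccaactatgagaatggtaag
Gstp2: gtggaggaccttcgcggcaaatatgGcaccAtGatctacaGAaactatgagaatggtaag
Gstp-ps: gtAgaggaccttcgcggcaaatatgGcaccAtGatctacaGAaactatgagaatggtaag

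From base 453 to the 3' end at base 821, Gstp1 and Gstp2 were identical over 369 bases, and Gstp-ps matched Gstp1 over the 303 of these that reach the stop codon at base 755. The last 60 coding bases show the end of that shared stretch, the same in all 3 genes.
Last coding bases: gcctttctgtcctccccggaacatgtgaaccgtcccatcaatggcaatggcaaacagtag

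A 3' read that lies wholly in these bases does not tell the copies apart, and the sources used here do not state how reads that match several genes were assigned. A UMI in the row of one copy is thus a statement on where the counting placed it. The mu class members do not share this limit to the same degree. Gstm1 and Gstm7 were 82.8% identical over 669 aligned bases and shared no window of 50 bases. Gstm1 did share 15.4% of its 50-base windows with Gstm3 and 24.3% with the processed pseudogene Gstm2-ps1, but the Gstm3 row held 7 and 1 UMIs and the Gstm2-ps1 row 25 and 22 UMIs, against 1458 and 774 for Gstm1.

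Gstp1, the main pi class enzyme, was the member with the widest difference between the libraries. Over all cells it had 1386 UMIs in WT and 1904 in Irx3/5dHet, a level of 326 counts per 1000000 UMIs (CPM; 309 to 343) against 668 CPM (638 to 699), or 2.05-fold higher in Irx3/5dHet (1.91 to 2.20). At least 1 Gstp1 UMI was found in 31.6% of WT cells and 47.2% of Irx3/5dHet cells. Gstp2 was barely counted, with 13 UMIs in WT and 15 in Irx3/5dHet, or 3.06 and 5.26 CPM and a fold of 1.72 (0.765 to 3.93). The copies did not differ in opposite directions: both rows were higher in Irx3/5dHet, Gstp2 with an interval that includes 1. Gstp1 took 99.07% (98.42 to 99.50) of the UMIs of the pair in WT and 99.22% (98.71 to 99.56) in Irx3/5dHet, and the sum of the pair differed 2.05-fold (1.91 to 2.19). Past 1.5-fold, Gstp1 and Gstp2 were the 2 of 9 members higher in Irx3/5dHet, where 7.90% of all 16549 genes with 20 or more UMIs were, and 0 members were lower, where 20.4% of genes were. With at least 50 UMIs required, Gstp2 was no longer counted and 1 member remained past 1.5-fold.

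The split of UMIs between Gstp1 and the pseudogene row, unlike that between Gstp1 and Gstp2, differed between the libraries. Gstp-ps held 1234 UMIs in WT and 1030 in Irx3/5dHet, or 290.0 and 361 CPM, a fold of 1.25 (1.15 to 1.36). Gstp1 took 52.9% (51.0 to 54.8) of the Gstp1 and Gstp-ps UMIs in WT and 64.9% (63.1 to 66.6) in Irx3/5dHet. The share was higher in Irx3/5dHet in 6 of the 7 classes, and the intervals lay apart in neuron-like cells (51.3% and 64.6%), oligodendrocyte-like cells (55.6% and 66.1%) and tanycyte-like cells (49.6% and 67.2%). In oligodendrocyte precursor-like cells it was 56.9% and 56.7%. When Gstp1, Gstp2 and Gstp-ps were summed, the level was 619 CPM in WT and 1034 CPM in Irx3/5dHet, a fold of 1.67 (1.59 to 1.76) in place of 2.05.

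**Figure D1:**
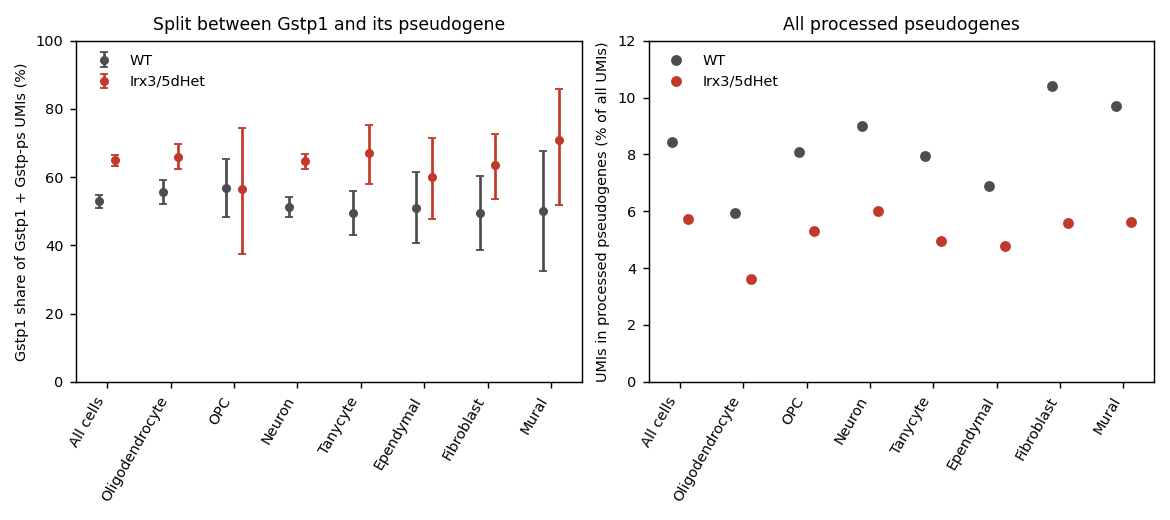
Left, share of Gstp1 in the UMIs of Gstp1 and Gstp-ps (percent, with exact 95% intervals) by cell class, WT in grey and Irx3/5dHet in red. Right, UMIs counted to any processed pseudogene as a percent of all UMIs; OPC stands for oligodendrocyte precursor-like cells. The red points lie above the grey ones for all cells and 6 classes on the left, and below them for all cells and all 7 classes on the right.

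Such a shift was not limited to the pi class genes. Rows annotated as processed pseudogenes took 8.42% of the UMIs in WT and 5.73% in Irx3/5dHet, and the share was lower in Irx3/5dHet in each of the 7 classes, from 10.4% against 5.59% in fibroblast-like cells to 5.96% against 3.61% in oligodendrocyte-like cells. Of 307 other pairs of a gene and its pseudogene matched by name, the parent's share was higher in Irx3/5dHet in 270 and lower in 37, with a median difference of 5.97 percentage points. The intervals of the 2 libraries lay apart in 195 of these pairs, 184 of them with the higher parent share in Irx3/5dHet. Most of the pairs are ribosomal protein genes, and many share a parent row, such as those of Rpl31 and Rpl21. The pairs are thus not separate observations. How much of the Gstp1 difference moves with this shift was not tested.

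By cell class, Gstp1 was highest in oligodendrocyte-like cells, the myelinating glia, in both libraries. There it had 439 UMIs in WT and 428 in Irx3/5dHet, or 982 CPM (892 to 1078) in WT and 2498 CPM (2267 to 2746) in Irx3/5dHet, which was 2.55-fold higher (2.22 to 2.91). Neuron-like cells came next, with 301 CPM (277 to 327) and 630.0 CPM (595 to 667), a fold of 2.09 (1.89 to 2.31). Oligodendrocyte-like cells stood clear of all other classes in both libraries, whereas the neighbours below them, neuron-, fibroblast-, mural- and tanycyte-like cells, overlapped one another in order of level.

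The Gstp1 difference had the same direction in 6 of the 7 classes, each with an interval above 1. Fibroblast-like cells had 233 and 513 CPM (fold 2.20, 1.48 to 3.31), mural-like cells, the muscle and pericyte coat of vessels, 209 and 458 CPM (2.19, 1.11 to 4.40), and tanycyte-like cells, the radial glia of the ventricle floor, 203 and 461 CPM (2.27, 1.69 to 3.03). Ependymal-like cells, the ciliated lining of the ventricle, had 169.6 and 283 CPM (1.67, 1.08 to 2.58). Within them the clusters parted: the cluster that also carried astrocyte markers had a fold of 2.597 (1.47 to 4.65) and the other one a fold of 0.785 (0.338 to 1.68). Oligodendrocyte precursor-like cells, which give rise to oligodendrocytes, had 223 CPM from 78 UMIs in WT and 203.5 CPM from 17 UMIs in Irx3/5dHet, a fold of 0.914 (0.507 to 1.56). Microglia- or macrophage-like cells, with 105 and 45 cells, held 11 and 2 Gstp1 UMIs, or 106 and 41.1 CPM. This class gave the lowest level of Gstp1, with a UMI in 8.57% and 4.44% of cells at medians of 770.0 and 832 UMIs per cell. How much free RNA in the droplets adds to each class was not tested.

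In the 7 neuron-like clusters the Gstp1 fold ran from 1.13 to 5.08, and the interval lay above 1 in 5 of them. The largest cluster, led by Cartpt, Oxt, Gal and Sst, had 351 and 788 UMIs, or 357 and 690.1 CPM. The cluster led by Npy and Agrp, the peptides of hunger-promoting arcuate neurons, had 203 and 625 CPM (3.08, 1.88 to 5.35) from 13 and 43 cells. The cluster led by Foxb1 had 343 and 386 CPM, a fold of 1.13 (0.694 to 1.80), and that led by Tac2 and Kiss1 377 and 639 CPM, a fold of 1.70 (0.972 to 3.07).

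**Figure D2:**
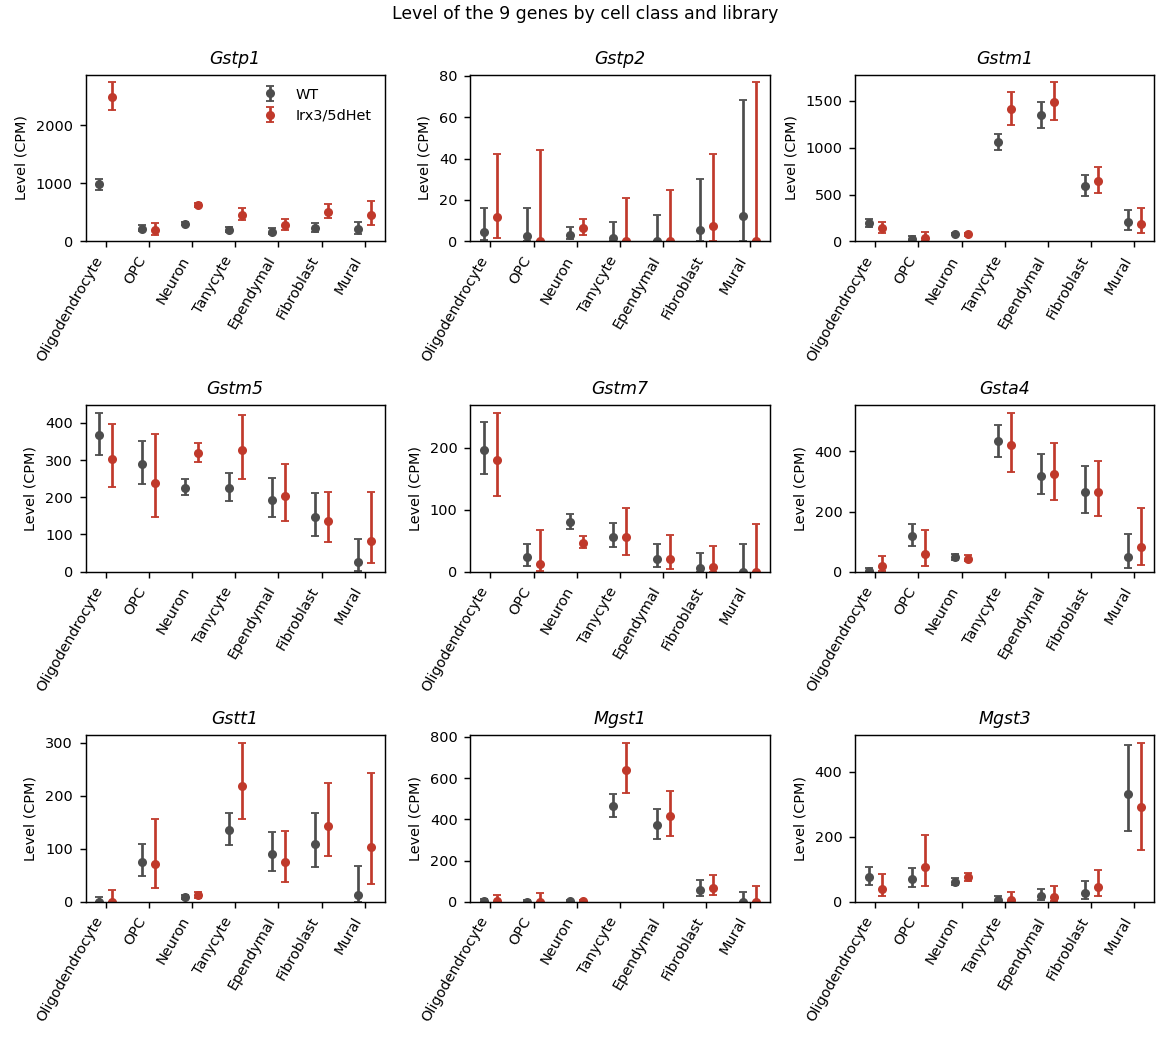
Level of each member in counts per 1000000 UMIs, CPM (vertical axis, from 0, with its own scale per gene) in the 7 classes with at least 50 cells per library, WT in grey and Irx3/5dHet in red, with exact Poisson 95% intervals. Gstp1 stands out in oligodendrocyte-like cells, Gstm1 and Mgst1 in tanycyte- and ependymal-like cells, and Mgst3 in mural-like cells.

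The share of cells with Gstp1 was also taken at equal depth, with each cell thinned to 800 UMIs and shallower cells left out. After thinning, 52.1% (44.7 to 59.5) of 188 WT and 73.3% (62.6 to 82.2) of 86 Irx3/5dHet oligodendrocyte-like cells had a Gstp1 UMI, against 61.9% and 75.4% unthinned. In neuron-like cells it was 19.7% (16.6 to 23.2) of 583 and 38.3% (34.2 to 42.6) of 540, against 36.7% and 57.2% unthinned. In fibroblast-like cells the shares were 9.74% and 33.3%, and 16.8% and 37.0% when the UMIs were drawn a second time. In tanycyte-like cells they were 15.9% and 28.4%. Oligodendrocyte precursor-like cells had 14.5% of 179 and 14.3% of 35. For Gstm5 in neuron-like cells 87 of 583 and 108 of 540 cells had a UMI (intervals 12.1% to 18.1% and 16.7% to 23.6%), which overlap, but 14.4% (11.7 to 17.5) and 21.5% (18.1 to 25.2) in the second draw, which do not. Thinning left out 72 and 36 oligodendrocyte-like cells, 243 and 170 neuron-like cells, and 73 and 44 precursors.

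**Figure D3:**
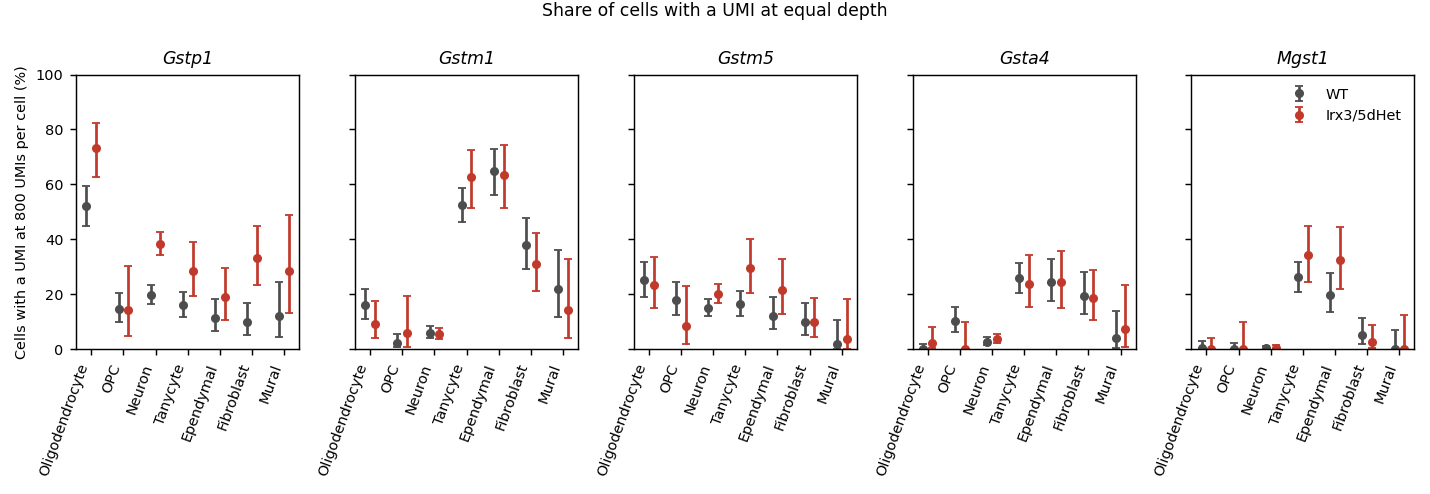
Percent of cells with at least 1 UMI of the gene after each cell was thinned to 800 UMIs (vertical axis), by class, WT in grey and Irx3/5dHet in red, with exact 95% intervals; the 5 members with at least 500 UMIs are shown. For Gstp1 the intervals lie apart in oligodendrocyte-, neuron- and fibroblast-like cells, and for the other 4 genes the libraries overlap in every class in the draw shown.

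The mu class members each had their own pattern. Gstm1, a mu class enzyme that lies in a cluster of related genes on chromosome 3 (minus strand, 108012255 to 108017973), was highest in the cells of the ventricle wall. Ependymal-like cells had 388 and 220 UMIs, or 1343 CPM (1213 to 1484) and 1484 CPM (1295 to 1694), and tanycyte-like cells 635 and 250 UMIs, or 1058 CPM (977 to 1144) and 1406 CPM (1237 to 1592). The 2 classes did not overlap in WT and did in Irx3/5dHet. Fibroblast-like cells followed with 590.0 and 641 CPM, apart from the classes on either side, while neuron-like cells had 80.7 and 73.8 CPM and oligodendrocyte precursor-like cells 28.5 and 35.9 CPM. In thinned cells, a Gstm1 UMI was found in 64.9% and 63.5% of ependymal-like but 6.003% and 5.37% of neuron-like cells.

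Over all cells Gstm1 was lower in Irx3/5dHet, with 343 against 271.5 CPM, but within tanycyte-like cells it was 1.33-fold higher (1.14 to 1.54). The other 5 classes with 20 or more Gstm1 UMIs had intervals that include 1. In tanycyte-like cells the clusters differed: the one led by Crym and Rax had 968 and 1618 CPM (1.67, 1.37 to 2.03), and the one led by Scn7a and Cldn10 had 1239 and 1197 CPM (0.966, 0.762 to 1.22). The first of these is the larger, with a mean log2 ratio to the median of all clusters of 2.575 over the astrocyte and 2.565 over the tanycyte markers, and its median depth was 1260.0 UMIs in WT and 795 in Irx3/5dHet.

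Gstm5, a mu class member on the plus strand of chromosome 3 from 107895821 to 107898686, was found in all the compared classes, without a class far above the rest. It had 367 and 304 CPM in oligodendrocyte-like, 225 and 326 CPM in tanycyte-like, 226 and 319 CPM in neuron-like and 288 and 239.5 CPM in oligodendrocyte precursor-like cells, and neighbours in this order overlapped in at least 1 library. The low end was mural-like cells with 2 and 4 UMIs. Gstm5 was higher in Irx3/5dHet over all cells, with 220.2 CPM (206 to 235) in WT and 282 CPM (263 to 302) in Irx3/5dHet, or 1.28-fold (1.16 to 1.41). It was 1.41-fold higher in neuron-like cells (1.25 to 1.60) and 1.45-fold higher in tanycyte-like cells (1.05 to 1.99), with intervals that include 1 elsewhere. Among neuron-like clusters, that led by Tac2 and Kiss1 was lower in Irx3/5dHet: its level was 912 CPM from 46 UMIs and 539 CPM from 38 UMIs (0.591, 0.375 to 0.929).

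Gstm7, a mu class member on the minus strand of chromosome 3 from 107926334 to 107931817, was highest in oligodendrocyte-like cells, with 88 and 31 UMIs, or 197 CPM (158 to 243) and 181 CPM (123 to 257), apart from all other classes. Among the classes with 20 or more Gstm7 UMIs it differed most between libraries in neuron-like cells, with 155 UMIs or 80.2 CPM (68.1 to 93.9) in WT and 89 UMIs or 46.6 CPM (37.4 to 57.4) in Irx3/5dHet, a fold of 0.581 (0.443 to 0.759). It was the 1 member lower past 1.5-fold in neuron-like cells, where 17.9% of 13044 genes were, while Gstp1 was the 1 higher, where 7.65% were. In the largest neuron-like cluster the Gstm7 fold was 0.483 (0.329 to 0.701), in the second largest 0.342 (0.114 to 0.871), and in the Npy and Agrp cluster 0.951 (0.435 to 2.24). Tanycyte-like cells had 56.7 and 56.3 CPM.

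Among the 7 compared classes Gsta4, Gstt1 and Mgst1 were highest in tanycyte-like cells and nearly missing from oligodendrocyte-like cells. Gsta4, which acts on the lipid aldehyde 4-hydroxynonenal, lies on the plus strand of chromosome 9 from 78182774 to 78209349. It had 433 and 422 CPM in tanycyte-like, 318.5 and 324 CPM in ependymal-like and 265 and 264 CPM in fibroblast-like cells, and these 3 overlapped as neighbours. The next class was at 117 and 59.9 CPM, and oligodendrocyte-like cells held 1 and 3 UMIs. Gsta4 kept a fold of 0.974 (0.743 to 1.26) in tanycyte-like and 0.995 (0.626 to 1.57) in fibroblast-like cells, although over all cells it read 135 against 106 CPM (0.785, 0.681 to 0.904).

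Gstt1, the theta class member, on the minus strand of chromosome 10 from 75783813 to 75798584, was highest in tanycyte-like cells, with 81 UMIs or 135 CPM (107 to 168) in WT and 39 UMIs or 219 CPM (156 to 299.9) in Irx3/5dHet, a fold of 1.63 (1.08 to 2.41). With Gstp1 it made 2 of 7 measured members higher past 1.5-fold there, against 16.2% of 6928 genes. The folds within the tanycyte-like clusters were 1.51 (0.660 to 3.18) and 1.27 (0.775 to 2.04), both smaller than the pooled one. Fibroblast-like cells were next for Gstt1, with 108 CPM in WT and 143 CPM in Irx3/5dHet, and overlapped tanycyte-like cells in both libraries. Oligodendrocyte-like cells held 0 Gstt1 UMIs in both libraries, where 3 counts, set as the floor for detection, would be 6.71 and 17.5 CPM. The exact interval for 0 reaches somewhat higher than this floor.

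Mgst1, whose protein sits in the membranes of the endoplasmic reticulum and mitochondria, lies on the plus strand of chromosome 6 from 138140316 to 138156755. It had 280 and 114 UMIs in tanycyte-like cells, or 467 CPM (414 to 525) in WT and 641 CPM (529 to 770), or 1.38-fold (1.10 to 1.72). Ependymal-like cells had 374 and 418 CPM. Then the level dropped to 59.5 and 67.8 CPM in fibroblast-like cells and 3.10 and 3.67 CPM in neuron-like cells, and 0 UMIs were found in mural-like and oligodendrocyte precursor-like cells of either library. Tanycyte-like cells held 59.6% of the WT and 46.5% of the Irx3/5dHet Mgst1 UMIs, and ependymal-like cells 23.0% and 25.3%. After thinning, 26.1% and 34.1% of tanycyte-like cells had an Mgst1 UMI, against 0.343% and 0.556% of neuron-like cells. Epithelial-like cells, only 45 and 35 in number, had more Mgst1 than tanycyte-like cells in both libraries, with 58 and 49 UMIs or 788 and 959.5 CPM. Their Gsta4 level was 407 and 939.9 CPM, but 24 of the 48 Irx3/5dHet UMIs came from 1 cell.

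Mgst3, the other microsomal member, on the minus strand of chromosome 1 from 167371966 to 167393841, ran the other way. It was highest in mural-like cells, with 27 and 14 UMIs, or 332 CPM (219 to 483) and 291 CPM (159 to 489), and lowest in tanycyte-like cells, with 4 and 1 UMIs. The mural-like level was apart from the next class in WT and overlapped it in Irx3/5dHet. Neuron-like cells held 118 and 144 UMIs, or 61.1 and 75.4 CPM, a fold of 1.24 (0.962 to 1.59). In oligodendrocyte-like cells it had 34 and 7 UMIs, a fold of 0.537 (0.201 to 1.23), and in oligodendrocyte precursor-like cells 25 and 9 UMIs, a fold of 1.51 (0.620 to 3.35), so both intervals include 1.

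**Figure D4:**
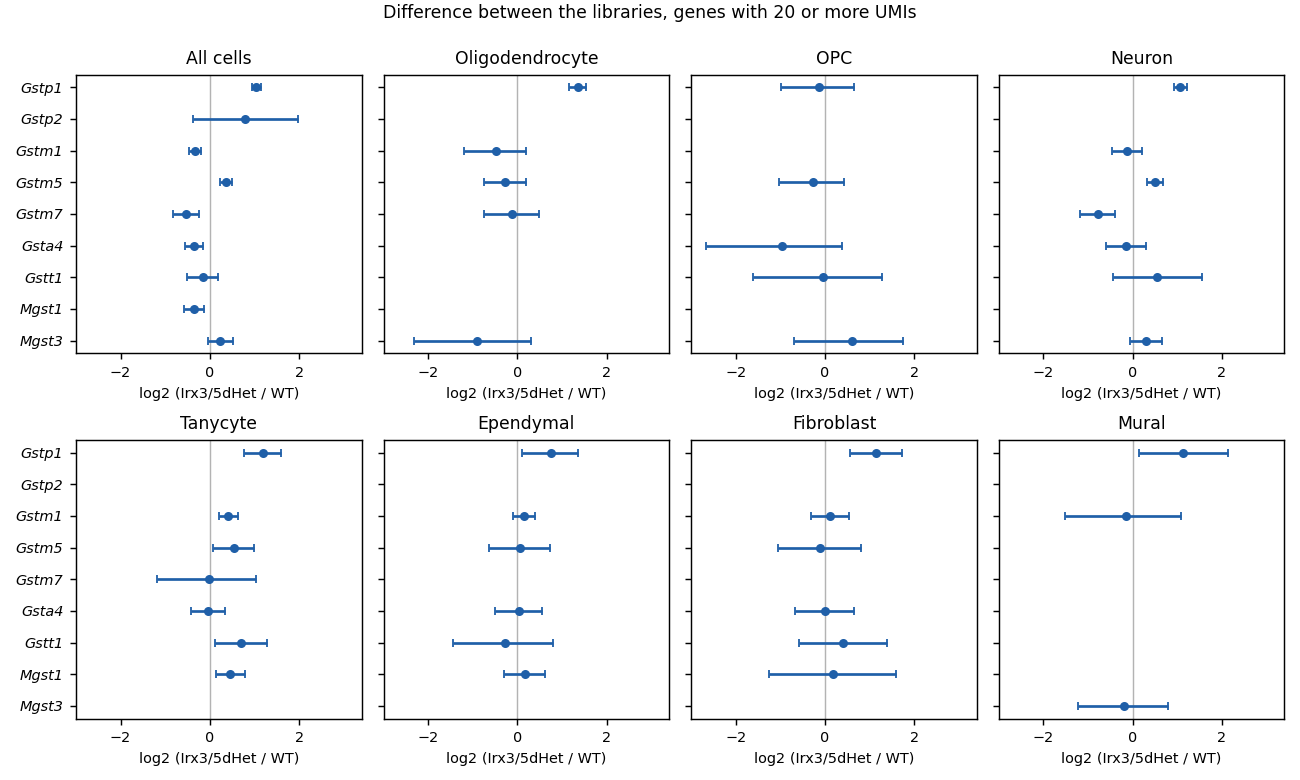
Log2 ratio of the CPM level, Irx3/5dHet over WT (horizontal axis), for each member with 20 or more UMIs, over all cells and in the 7 classes, with exact conditional 95% intervals. Gstp1 lies right of 0 in every panel but that of oligodendrocyte precursor-like cells, and Gstm7 lies left of 0 over all cells and in neuron-like cells.

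The all-cell ratios of 4 members turned direction once the class mix was held equal, which weights each class's level by its share of both libraries' UMIs together and was chosen after the data were seen. Gstm1 went from 0.793 to 1.15, Gsta4 from 0.785 to 1.03, Gstt1 from 0.894 to 1.35 and Mgst1 from 0.778 to 1.28. These are the members highest in tanycyte- or ependymal-like cells. For Gsta4 the turn was slight, with 121.5 CPM in WT and 125.6 CPM in Irx3/5dHet at equal mix. The weights also cover classes too small to be compared, such as epithelial-like cells (1.755% of the weight). Many of the Irx3/5dHet Gsta4 UMIs in that class came from a single cell, as given above. Whether Gsta4 turns without that class was not tested. Gstp1 moved from 2.05 to 2.14, Gstp2 from 1.72 to 1.53, Gstm5 from 1.28 to 1.26, Gstm7 from 0.691 to 0.715 and Mgst3 from 1.17 to 1.08, all in the direction they had before. All 9 members together were at 1306 CPM in WT and 1571 CPM in Irx3/5dHet, a fold of 1.20 (1.16 to 1.25), and the 8 without Gstp1 at 980.3 and 903 CPM, a fold of 0.921 (0.877 to 0.968). These are values over all cells at the measured mix. Within classes the fold of the 8 was 1.14 (1.04 to 1.24) in neuron-like and 1.29 (1.17 to 1.43) in tanycyte-like cells. In the other compared classes its interval included 1. The median log2 ratio of the members was -0.16 over all cells against -0.08 over all genes, 0.30 against -0.06 in neuron-like cells, and 0.46 against 0.03 in tanycyte-like cells.

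Counted by class past 1.5-fold with at least 20 UMIs, the members can be set beside all genes. In ependymal-like cells 1 of 6 members (Gstp1) was higher in Irx3/5dHet, where 14.6% of 4577 genes were, and 0 were lower, where 16.6% were. In fibroblast-like cells it was 1 of 6 (Gstp1) against 17.3% of 3173 genes, and 0 lower against 19.4%. In mural-like cells it was 1 of 3 (Gstp1) against 16.3% of 1269 genes, and 0 lower against 18.5%. In oligodendrocyte-like cells 1 of 5 (Gstp1) was higher, against 12.7% of 4820 genes, and 1 (Mgst3) lower, against 19.5%. In oligodendrocyte precursor-like cells 1 of 5 (Mgst3) was higher, against 16.8% of 5023 genes, and 1 (Gsta4) lower, against 20.3%. Gsta4 had 117 CPM in WT and 59.9 CPM in Irx3/5dHet there, and the interval of its fold includes 1. In tanycyte-like cells, with 2 of 7 higher as given above, 0 were lower, against 18.4% of genes.

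**Figure D5:**
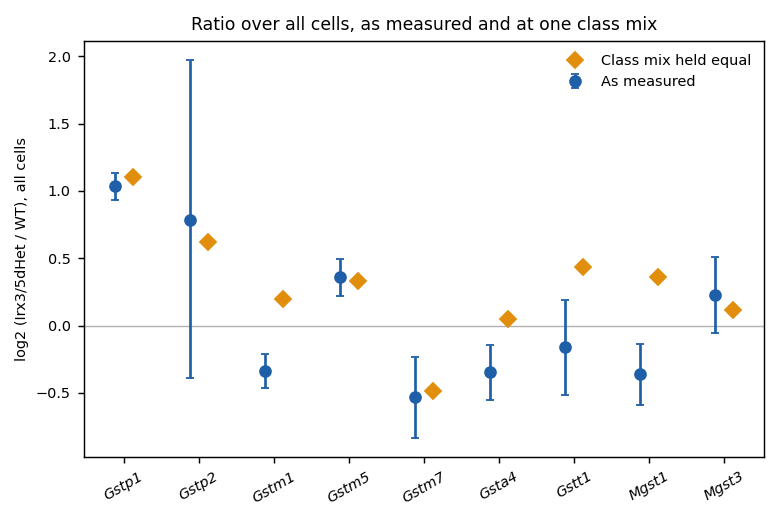
Log2 ratio, Irx3/5dHet over WT, for all cells (vertical axis) of each member as measured (blue circles, exact conditional 95% intervals) and with the class mix held equal (orange diamonds, no interval). The diamonds of Gstm1, Gsta4, Gstt1 and Mgst1 lie above 0 and their circles below it. The Gsta4 diamond is at only 0.048, and the mix includes classes too small to be compared.

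Across the 14 points given by 7 classes in 2 libraries, the levels of some members ran together. Points of 1 library share its depth, and the correlations of log2(CPM + 10) are a description. Gstm1 and Mgst1 had a Pearson r of 0.91, Gsta4 and Gstt1 0.90, and Gsta4 and Mgst1 0.82, while Gstm5 and Gstm7 had 0.77 and Gstp1 and Gstm7 0.61. Mgst3 ran against Mgst1, at -0.86. Among 6830 genes with at least 200 UMIs, the pattern most like that of Gstp1 was that of Hebp1, at 0.93, then Gstp-ps at 0.92 and App at 0.88. Those most like Mgst1 were Crym, a tanycyte marker, at 0.98, Gja1, which encodes a gap junction protein of astroglia, at 0.97, and Lix1 at 0.97. Those most like Gstm1 were the glial transcription factor gene Sox9 at 0.94, Anxa2 at 0.92 and Mgst1 at 0.91. The nearest to Mgst3 was Ndufs7, a subunit gene of respiratory complex I, at 0.98, to Gstt1 Mdk at 0.96, to Gstm7 Mapk8ip1 at 0.94, to Gsta4 Cst3 at 0.94 and to Gstm5 Npepps at 0.94.

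The start sites were also compared, over 300 bases each in the RefSeq promoter table for GRCm38. The Gstp2 window, from 4042172 to 4042471, lies inside the GENCODE gene given above. Its start here is therefore not the GENCODE gene start. The promoter windows of Gstp1 and Gstp2 were identical at 86.5% of 274 aligned bases. Searched on both strands, each held 1 TGAGTCA, the letters of the AP-1 element, beginning 74 and 89 bases before the start, and so did Gstm5. These letters occur in 5.20% of 32851 promoters, and the other members' windows did not hold them. TATAAG, letters of a TATA box, occurred in each of the same 3 genes, against 7.43% of promoters. In Gstp1 and Gstp2 they lie at 1 place each, within CTTATAAG, which reads the same on both strands. That place begins 42 and 45 bases before the start. In Gstm5 the match begins 234 bases before the start and reads CTTATA, the same letters on the other strand. Related letters such as TATAAA were not searched for, so the other members' windows cannot be said to lack a TATA box. TGACNNNGC, the core of the antioxidant response element, which can overlap the AP-1 letters read on the other strand, occurs in 12.4% of promoters. It was found in Gstm5 and in 1 of 2 windows each of Gstm7 and Mgst1. Gstp1 and Gstp2 did not hold these exact letters. Their AP-1 letters continue as TGAGTCAGC, which departs from TGACNNNGC only in a G in place of the C. That variant was not searched for, so the pi class windows cannot be said to lack such an element. Gsta4 had no window in the table.

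Of the remaining glutathione genes, 15 of 21 other transferase rows had 20 or more UMIs, of which 1 was higher past 1.5-fold in Irx3/5dHet (Gsta3, from 10 and 13 UMIs), where 7.90% of all genes were, and 5 were lower (Gstcd, Gstk1, Gsto2, Gstt2 and Ltc4s), where 20.4% were. Their median log2 ratio was -0.21, against -0.08 over all genes. Gstk1, the kappa class mitochondrial enzyme, had 132 and 40 UMIs, or 31.0 and 14.0 CPM (0.452, 0.309 to 0.649). Gstt2, a theta class relative of Gstt1, had 19.7 and 11.9 CPM (0.604, 0.393 to 0.910). Hpgds, a sigma class prostaglandin synthase, had 21.2 and 15.4 CPM, Gsto1, of the omega class, 44.6 and 58.9 CPM (1.32, 1.07 to 1.63), Gstm6 20.2 and 22.1 CPM, and Gstz1, which also degrades tyrosine breakdown products, 38.5 and 38.9 CPM. Gstp3, the third pi class row, held 0 UMIs in both libraries. Gsto1 was highest in neuron-like cells, at 64.7 and 65.5 CPM, and Gstk1 was near 0 there, with 3 and 4 UMIs.

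Of 29 genes of glutathione synthesis, recycling and peroxidases, 27 were measured. Past 1.5-fold, 3 were higher (Gpx3, Gpx4 and Chac1), against 7.90% of all genes, and 2 lower (Oplah and Abcc4), against 20.4%, and the median log2 ratio was 0.08, against -0.08 over all genes. Gpx4, the selenoprotein that reduces lipid peroxides inside membranes, had 355 and 474 UMIs, or 83.4 and 166 CPM (1.99, 1.73 to 2.29), and was 2.21-fold higher in neuron-like (1.78 to 2.75), 2.35-fold in oligodendrocyte-like (1.55 to 3.58) and 3.06-fold in tanycyte-like cells (2.16 to 4.31). Gpx3, the secreted peroxidase, had 251 and 437 CPM over all cells (1.74, 1.61 to 1.89) and 449.6 and 593 CPM in neuron-like cells (1.32, 1.21 to 1.44), but 138.5 and 60.7 CPM in ependymal-like cells from 40 and 9 UMIs (0.439, 0.187 to 0.918). Hagh, of the glyoxalase pathway, had 116 and 168 CPM over all cells (1.45, 1.28 to 1.65) and 17 and 3 UMIs in ependymal-like cells (0.344, 0.0646 to 1.19). Over all cells Gclc, the catalytic subunit of the first step of glutathione synthesis, had 39.5 and 29.8 CPM (0.755, 0.575 to 0.986), Gpx7 21.2 and 16.1 CPM and Slc3a2, a subunit of the cystine importer, 95.6 and 75.8 CPM. Gpx1, the cytosolic peroxidase, had 249 and 256 CPM.

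Of 22 regulators and targets of Nrf2, the transcription factor that answers electrophiles and is known to drive many transferase genes, 21 were measured. Past 1.5-fold, 1 was higher (Akr1b3), against 7.90% of all genes, and 3 were lower (Nqo1, Hmox1 and Ephx1), against 20.4%, and the median log2 ratio was -0.18, against -0.08 over all genes. Akr1b3, an aldose reductase, had 43 and 93 UMIs, or 10.1 and 32.6 CPM (3.23, 2.23 to 4.75), and Hmox1, the haem-degrading enzyme, 137 and 25 UMIs, or 32.2 and 8.77 CPM (0.272, 0.170 to 0.419). In tanycyte-like cells Hmox1 had 81 and 8 UMIs (0.333, 0.139 to 0.689). Nfe2l2, which encodes Nrf2, had 52.6 and 38.6 CPM (0.733, 0.578 to 0.925), and Ephx1 24.0 and 13.7 CPM. Cbr1 had 127 and 182 CPM and Srxn1 27.3 and 38.2 CPM. Of the abundant targets, Fth1, the ferritin heavy chain, had a fold of 1.04 (0.992 to 1.09) in neuron-like and 1.03 (0.984 to 1.08) in oligodendrocyte-like cells. Prdx1, a peroxiredoxin, had 0.976 (0.883 to 1.08) and 0.765 (0.633 to 0.921), so its interval lay below 1 in oligodendrocyte-like cells. Sqstm1, an autophagy receptor, had 0.913 (0.832 to 1.002) and 0.816 (0.608 to 1.08).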

How the data were processed

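Single-cell RNA of 1 pooled WT and 1 pooled Irx3/5dHet library was analysed. The deposited tables hold whole-number UMI counts per gene and barcode, made by the authors before deposit, with 2800 barcodes and 4426817 UMIs in WT and 1800 and 2974060 in Irx3/5dHet. A merged table deposited by the authors is on a natural log scale after scaling each cell by its depth, as its values show; only its barcodes were used, as an alternative set. Tools listed in the submitters' processing notes are STAR 2.6.0b, Picard, bcl2fastq and Seurat 3, with the build mm10. How reads that match several genes were handled is not stated there. Columns of no sample: 0.

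Used cells had 300 or more genes and no more than 20% mitochondrial UMIs. Scrublet (scanpy 1.11.5, expected rate 5%) marked 17 of 3889 cells (0.437%), which were left out; at a rate so far under the expected one, doublets may remain among the 3872 cells. Leiden clustering (leidenalg 0.10.2, resolution 1, 20 neighbours, 30 components of 2000 variable genes) left out all transferase genes, and clusters were named from fixed markers, with score limits set after the data were seen. Sums of UMIs were taken per class within each library. Ratios carry exact conditional binomial, counts exact Poisson and shares Clopper-Pearson 95% intervals, which cover counting error only. Calls past 1.5-fold needed 20 UMIs and added 0.5 to each sum. Of these steps, only the ratios over all cells and their calls were tested on simulated counts. The counts were drawn from the Poisson model that the intervals assume, so variation between pools was not covered. The intervals held the true ratio for 96.1% of 16549 genes, and 6.83% of unchanged genes passed 1.5-fold in either direction. Sequences came from GENCODE vM21 (GRCm38) and RefSeq. Copies were aligned by transcript, and 27805 gene symbols matched GENCODE.

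All 9 members were described. From the other lists were named the genes with at least 100 UMIs and the 3 highest and 3 lowest ratios over all cells, the 3 with the most UMIs, and the genes past 1.5-fold; further genes were named after their values were seen. For likeness, the 3 genes with the highest correlation were taken. The members, lists and rules were chosen with earlier results of these data known. Alternatives covered the cell filters, doublets, the merged barcodes, scaling, clustering and the UMI minimum.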

Additional observations from a re-analysis of the deposited data

How the results depend on the processing

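The log2 ratios of Gstp1, Gstp2 and their sum kept their direction under every alternative cell filter and scaling tried, and Gstp1 ran from 0.99 to 1.13 around its value of 1.04. Adding Gstp-ps to the sum of Gstp1 and Gstp2 took its log2 ratio from 1.03 to 0.74, since the pseudogene row differed less between the libraries. The count of members past 1.5-fold over all cells was 2 under the other alternatives and 1 when at least 50 UMIs were required. Of 70 shares of thinned cells, 66 stayed within their interval on a second draw. Those that did not were Gstp1 in WT fibroblast-like cells (9.74% and then 16.8%) and 3 shares that fell to 0%, Gsta4 in Irx3/5dHet oligodendrocyte-like cells (from 2.33%), Gstm1 in Irx3/5dHet oligodendrocyte precursor-like cells (from 5.71%) and Mgst1 in WT neuron-like cells (from 0.343%). The class ranked highest differed from the main one in 4 of 81 comparisons. By the mean over cells, Gstp2 and Gstt1 were highest in fibroblast-like cells (6.68 and 133.5 CPM). With limits of 500 genes and 10% mitochondrial UMIs, Gstm1 was highest in tanycyte-like cells (1201 CPM). Under the same limits Mgst3 ranked highest in oligodendrocyte precursor-like cells, but at 101 CPM, against 311 CPM in mural-like cells in the main ranking. Mural-like cells numbered only 58 in Irx3/5dHet before these limits, and ranking required 50. They may thus have dropped out of the ranking rather than been overtaken. Which classes stayed ranked under these limits was not checked. The class mix, the pseudogene sum and the totals without pseudogenes were alternatives chosen after the data were seen.

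No paired analysis was possible because each genotype is 1 pooled library. Depth limits the report most for Gstp2, for classes with few Irx3/5dHet cells (79 oligodendrocyte precursor-like and 58 mural-like cells) and for members near 0. With 1 pool per genotype, genotype and pool cannot be told apart.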
